A study of Mus musculus with 19 samples.

Results

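The genes described here coat cardiac lipid droplets or build and break down the triglyceride inside them. They are the perilipins Plin2, Plin3, Plin4 and Plin5, the lipase Pnpla2 with its coactivator Abhd5 and its inhibitor G0s2, the lipase Lipe, and the acyltransferases Dgat1 and Dgat2. These 10 genes were taken by symbol from the 55536 genes of the count tables, and all 10 were measured and passed the filter on low counts. Ventricular RNA came from mice with an inducible, heart-restricted loss of Mpc1 (KO) and from wild-type mice (WT). KO-8 (4 libraries) and WT-8 (5 libraries) were taken 8 weeks after induction, and KO-16 and WT-16 (5 libraries each) after 16 weeks. The labels do not name the promoter that drives the deletion, the strain, the age or the sex. They do not say whether each library is a separate animal, so p-values measure the spread between libraries. Total RNA depleted of ribosomal RNA was sequenced as stranded read pairs.

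A lipid droplet is a core of triglyceride under a single layer of phospholipid, and perilipins sit on that surface and control which lipases reach the core. In heart muscle, fatty acids that enter the cell pass in part through this store before mitochondria burn them. Pnpla2 (adipose triglyceride lipase) takes the first fatty acid off triglyceride, and the DGAT enzymes put the last one on. Mpc1 codes for part of the carrier that lets pyruvate into mitochondria, where it competes with fatty acids as fuel.

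The deletion was visible in the RNA. Mpc1 lay between 8.41 and 11.98 CPM (read counts scaled by library total and TMM factor) in KO-8, against 63.6 to 82.3 CPM in WT-8, and between 9.03 and 26.2 CPM in KO-16, against 61.7 to 83.9 CPM in WT-16 (log2 fold changes -2.78 at 8 and -2.22 at 16 weeks, adjusted p = 6.03e-10 and 0.0012 from edgeR). Library totals were 16.5 to 19.5 M (mega) read pairs in KO-8, 17.4 to 27.5 M in WT-8, 9.54 to 26.9 M in KO-16 and 8.63 to 19.7 M in WT-16. A gene annotated on 18S ribosomal RNA took 1.71% to 30.0% of counts in KO-16 and 6.88% to 39.1% in WT-16, and at most 0.067% at 8 weeks. Y-linked genes had over 5 CPM in 1 library of each 16-week group, KO-16 replicate 4 and WT-16 replicate 5, and at most 2 reads in any other library. The common coefficient of variation was 0.094 at 8 weeks and 0.24 at 16 weeks, so each time was tested alone. The files of the 2 times carry different tags in their names, and each 16-week sample has 2 files that were added up. Time and any round of sequencing that these tags mark cannot be told apart.

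One member passed the test at 8 weeks and none at 16 weeks. Dgat2 fell in KO-8 (1 of 10 members called by edgeR's quasi-likelihood test at an adjusted p of 0.05, beside 8.19% of the 15503 genes tested, 4.01% higher and 4.19% lower). At that time 2 of the 10 had an unadjusted p under 0.05 (Dgat2 and Plin2), beside 23.0% of all genes. At 16 weeks 0 of 10 were called, beside 2.55% of all genes (1.72% higher and 0.832% lower). There 7 of the 10 had an unadjusted p under 0.05, 2 with higher and 5 with lower values in KO-16, beside 23.5% of all genes. DESeq2 and limma-voom also called 0 members at 16 weeks, and no member had groups without overlap, beside 4.29% of all genes. The median log2 fold change of the members was 0.02 at 8 weeks, against -0.01 over all genes, and -0.36 at 16 weeks, against 0.02 over all genes. The test of the difference between the knockout effects at 16 and 8 weeks called 0 of 10 members and 0.0% of all genes. In it 4 members had an unadjusted p under 0.05, beside 12.9% of all genes. A fit that shared the spread of all 19 libraries called 3 members at 16 weeks (Dgat1 higher, Plin2 and Pnpla2 lower), beside 20.5% of all genes, and 0 at 8 weeks, beside 0.2%. Single libraries also decided calls. Without KO-16 replicate 1, 3 members passed at 16 weeks (Plin5, Lipe and Dgat2 lower), and without KO-16 replicate 5, 2 did (Plin2 lower and Dgat1 higher), each beside 1864 of the 15503 genes. Without WT-8 replicate 5, Plin2 and Lipe passed at 8 weeks beside Dgat2, beside 7.35% of all genes.

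**Figure D1:**
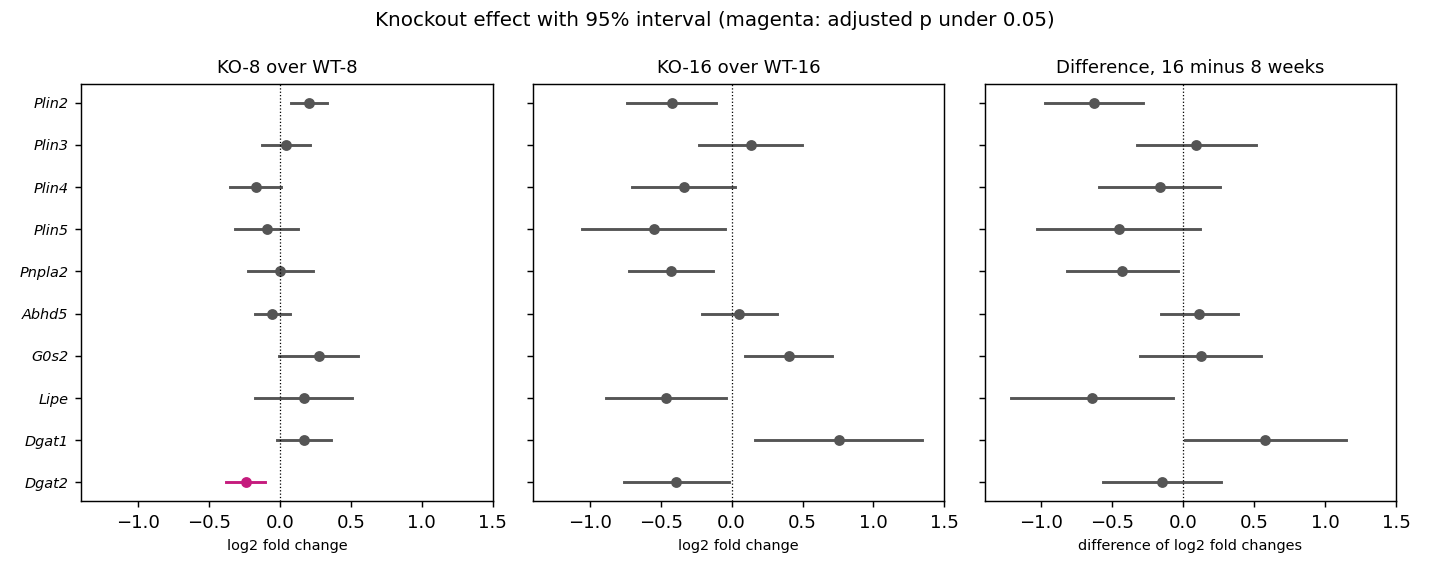
Log2 fold change of KO over WT for each of the 10 genes at 8 weeks, at 16 weeks, and the difference between both (16 minus 8 weeks), on the x axis, with 95% intervals from edgeR. Dgat2 at 8 weeks is the only point past an adjusted p of 0.05, and the intervals at 16 weeks are wider than those at 8 weeks.

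Among the droplet coats, Plin2 was higher in KO at 8 weeks and lower at 16 weeks in its means, and neither difference passed the test. Plin2 is the perilipin of most non-adipose cells and coats droplets as they fill. It lies on GRCm38 chromosome 4 (86648386 to 86670060, minus strand, ENSMUSG00000028494). At 8 weeks it had 36.0, 36.8, 34.3 and 35.2 CPM in KO-8, against 30.0, 33.0, 30.9, 27.6 and 32.8 CPM in WT-8. All 4 KO-8 libraries were above all 5 WT-8 libraries, and Plin2 was the only 1 of the 10 genes whose groups did not overlap, beside 10.7% of all genes. That is a log2 fold change of 0.21 (95% interval 0.08 to 0.34), and the adjusted p of 0.0512 from edgeR missed the threshold. It passed in 8 of 20 alternatives, DESeq2 (adjusted p = 0.0304) and limma-voom (adjusted p = 0.0495) among them.

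At 16 weeks the order was the other way. Plin2 had 31.3, 21.2, 28.9, 22.3 and 33.0 CPM in KO-16, against 32.1, 37.6, 31.1, 41.1 and 41.1 CPM in WT-16. 3 of the 5 KO-16 libraries lay below every WT-16 library and the others overlapped with them. This gave a log2 fold change of -0.42 (95% interval -0.74 to -0.11, adjusted p = 0.114 from edgeR). The difference between the times was -0.63 (95% interval -0.97 to -0.29), with an unadjusted p of 0.00101 that ranked 52 among 15503 genes and an adjusted p of 0.271 from edgeR. Without KO-16 replicate 1 that difference was -0.69 (adjusted p = 0.0276), and without KO-16 replicate 5 it was -0.70 (adjusted p = 0.0467), the 2 of 22 alternatives that passed.

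The RefSeq promoter window of Plin2 is shown because its transcript gave the clearest separation of groups at 8 weeks (GRCm38.p6, chr4:86670010-86670309, minus strand, 250 bases before to 50 after the start). Capitals mark a nuclear receptor half-site (AGGTCA, here on the opposite strand), a CCAAT box, an E-box (CACGTG) and a GC box (GGGCGG), in this order and at -218, -73, -4 and +15 from the start.
Plin2: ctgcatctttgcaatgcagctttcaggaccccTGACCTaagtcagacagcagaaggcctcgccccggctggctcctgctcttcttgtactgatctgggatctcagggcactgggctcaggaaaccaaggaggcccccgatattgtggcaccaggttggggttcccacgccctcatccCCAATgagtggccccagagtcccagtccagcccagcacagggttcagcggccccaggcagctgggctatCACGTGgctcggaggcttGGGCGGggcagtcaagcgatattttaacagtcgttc
On either strand, AGGTCA was in 16.3%, CCAAT in 37.4%, CACGTG in 7.15% and GGGCGG in 35.7% of 32851 promoter windows of this length. The direct repeat of the half-site with a single base between (AGGNCA as the half-site), the classic PPAR element, was in 0.381% of windows and in none of the 10 windows of the 8 members with an entry. TATAAA, in 13.6% of windows, was in none of the 10 either. AGGTCA was also in the windows of Plin5 and Abhd5, and CACGTG also in a window of Lipe. These are matches of letters, and no binding was measured.

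Plin5, the perilipin of oxidative tissues that ties droplets to mitochondria, had 67.7, 70.3, 47.8 and 59.6 CPM in KO-8, against 63.9, 65.3, 60.8, 59.0 and 77.6 CPM in WT-8. These ranges overlapped (log2 fold change -0.09, 95% interval -0.31 to 0.13, adjusted p = 0.657 from edgeR). At 16 weeks Plin5 had 24.7, 13.97, 14.6, 7.81 and 11.1 CPM in KO-16, against 19.4, 20.1, 25.2, 22.8 and 18.6 CPM in WT-16. 4 KO-16 libraries lay below all of WT-16, and replicate 1 lay within its range. The log2 fold change was -0.55 (95% interval -1.05 to -0.05, adjusted p = 0.180 from edgeR). Without KO-16 replicate 1 it was -0.83 (adjusted p = 0.0106). In the 6 libraries with over 20% of counts on the 18S gene, 2 KO-16 and 4 WT-16, it was -1.11 (adjusted p = 0.0194). That set of libraries was chosen after seeing the data and also leaves out KO-16 replicate 1. Over 27 alternatives, this set among them, the log2 fold change of Plin5 ran from -1.11 to -0.40 (adjusted p up to 0.355), and these 2 passed.

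Plin4 and Plin3 did not pass at either time. Plin4, a long perilipin of small droplets in fat and muscle, averaged 179 ± 21.8 CPM in KO-8 (SD, n = 4) and 202 ± 17.2 CPM in WT-8 (n = 5), and 118 ± 25.3 CPM in KO-16 and 150 ± 34.0 CPM in WT-16 (n = 5 each). Its log2 fold changes were -0.17 (adjusted p = 0.237) at 8 weeks and -0.34 (adjusted p = 0.244) at 16 weeks, both from edgeR. Plin3, a widely expressed perilipin that moves between cytosol and new droplets, averaged 78.7 ± 6.26 CPM in KO-8 and 76.3 ± 8.20 CPM in WT-8, and 44.6 ± 9.13 CPM in KO-16 and 40.8 ± 9.09 CPM in WT-16. Its log2 fold changes were 0.05 (95% interval -0.12 to 0.21) and 0.13 (95% interval -0.23 to 0.50) at 8 and 16 weeks. Plin4, Plin5 and Plin3 lie in this order on the minus strand within 192.3 kb of GRCm38 chromosome 17, with Plin4 next to Plin5, and no exon of one overlaps an exon of another gene on the same strand.

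**Figure D2:**
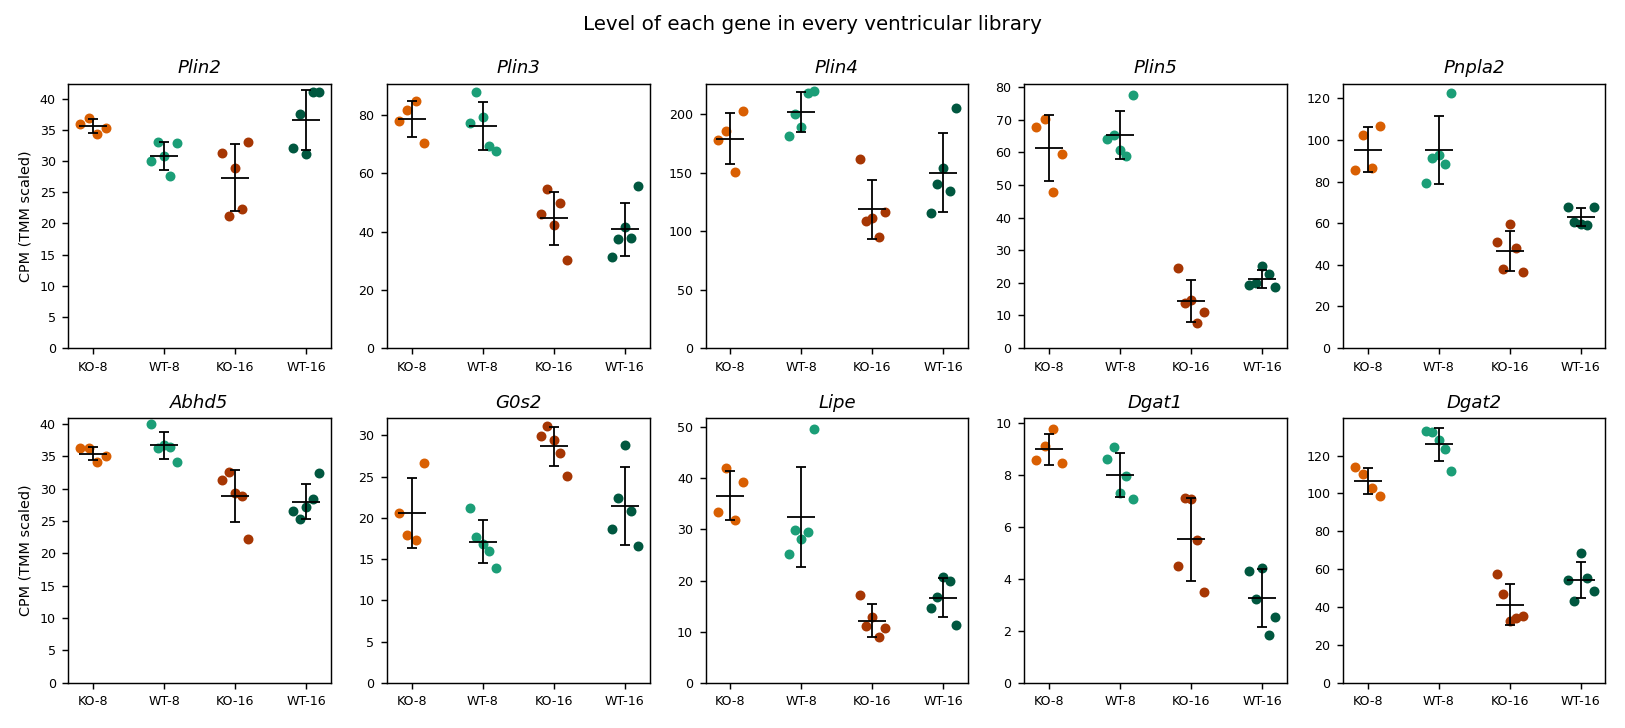
CPM of each of the 10 genes (y axis, a scale per gene starting at 0) in every library of KO-8, WT-8, KO-16 and WT-16 (x axis). Points are libraries, long bars means and whiskers SD. Plin2 separates KO-8 from WT-8, G0s2 and Dgat1 lie higher and Pnpla2 and Plin5 lower in most KO-16 libraries, and most genes sit lower at 16 than at 8 weeks.

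None of the breakdown genes passed at 16 weeks. The ratios of G0s2 and of Abhd5 to Pnpla2 reads differed between KO-16 and WT-16, and those of Lipe and of Plin5 to Pnpla2 did not. Pnpla2 lies on GRCm38 chromosome 7 (141455198 to 141460743, plus strand, ENSMUSG00000025509) and had the smallest adjusted p of the 10 genes at 16 weeks. It had 50.9, 37.8, 59.8, 48.1 and 36.4 CPM in KO-16, against 67.7, 60.7, 59.4, 58.9 and 67.5 CPM in WT-16. 4 of 5 KO-16 libraries were below all WT-16 libraries, and replicate 3 was inside the WT-16 range. Its log2 fold change was -0.43 (95% interval -0.73 to -0.13), and the adjusted p of 0.0953 from edgeR missed the threshold. At 8 weeks Pnpla2 averaged 95.3 ± 10.8 CPM in KO-8 (SD, n = 4) and 94.9 ± 16.3 CPM in WT-8 (n = 5). Its log2 fold change there was 0.00 (95% interval -0.23 to 0.23).

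G0s2 codes for a small protein that binds Pnpla2 and blocks its activity (GRCm38 chromosome 1, 193272161 to 193273217, minus strand, ENSMUSG00000009633). At 16 weeks it had 29.9, 31.2, 29.5, 27.8 and 25.1 CPM in KO-16, against 18.7, 22.4, 28.9, 20.8 and 16.5 CPM in WT-16. 3 KO-16 libraries were above every WT-16 library, and the other two were above all of WT-16 except its replicate 3. G0s2 thus had a log2 fold change of 0.40 (95% interval 0.09 to 0.71, adjusted p = 0.121 from edgeR). Without WT-16 replicate 3 it was 0.55 (adjusted p = 0.0570), and 0.28 (adjusted p = 0.297) in a fit that carried each library's 18S share. At 8 weeks G0s2 averaged 20.6 ± 4.26 CPM in KO-8 and 17.1 ± 2.64 CPM in WT-8, a log2 fold change of 0.27 (adjusted p = 0.222 from edgeR).

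The promoter windows of this enzyme and its inhibitor are shown side by side (RefSeq, GRCm38.p6, Pnpla2 at chr7:141454938-141455237 on the plus strand and G0s2 at chr1:193273139-193273438 on the minus strand). They were chosen because the KO-16 means of the transcripts lay on opposite sides of the WT-16 means, with overlapping ranges. Capitals mark GC boxes (GGGCGG or its complement), at -109 and -26 in Pnpla2 and at -18 in G0s2.
Pnpla2: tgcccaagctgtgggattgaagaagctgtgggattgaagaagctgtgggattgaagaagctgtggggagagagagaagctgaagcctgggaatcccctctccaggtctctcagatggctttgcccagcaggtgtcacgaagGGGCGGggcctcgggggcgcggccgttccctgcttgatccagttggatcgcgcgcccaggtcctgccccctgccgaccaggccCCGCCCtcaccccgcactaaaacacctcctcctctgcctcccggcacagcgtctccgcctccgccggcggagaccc
G0s2: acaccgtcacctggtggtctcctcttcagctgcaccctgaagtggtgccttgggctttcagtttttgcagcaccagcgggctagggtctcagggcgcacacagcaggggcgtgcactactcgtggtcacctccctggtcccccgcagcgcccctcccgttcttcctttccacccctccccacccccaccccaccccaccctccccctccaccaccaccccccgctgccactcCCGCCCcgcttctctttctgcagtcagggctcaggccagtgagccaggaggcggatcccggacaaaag
Neither window held any of the other motifs searched.

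The ratio of G0s2 to Pnpla2 reads within a library does not depend on how libraries are scaled, and it was higher in KO-16. From low to high, its log2 value was -1.02, -0.79, -0.77, -0.54 and -0.28 in KO-16, against -2.02, -1.85, -1.5, -1.43 and -1.04 in WT-16. Every KO-16 library was above every WT-16 library, by a narrow margin between the lowest and the highest. The mean was -0.68 ± 0.28 in KO-16 and -1.57 ± 0.38 in WT-16 (SD, n = 5 each), a difference of 0.89 (exact two-sided permutation test, p = 0.00794, the smallest that 5 against 5 libraries can give, and 0.0381 after adjustment over the 12 ratio tests made). At 8 weeks the mean was -2.22 ± 0.24 in KO-8 (n = 4) and -2.47 ± 0.44 in WT-8 (n = 5), a difference of 0.25 (exact permutation p = 0.429). The difference between the 2 times was not tested. The ratio tests, here and below, were chosen with earlier results of these data known, and the adjustment does not cover that choice. By 18S share, the highest KO-16 ratio was in replicate 2 (1.71% of counts) and the lowest in replicate 3 (5.66%). In WT-16 the highest was in replicate 3 (6.88%), against 23.2% to 39.1% in the other WT-16 libraries. No ratio was tested with the 18S share in the fit, without the libraries with Y-linked reads, or with a single file of each sample.

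Abhd5 (also CGI-58) is the protein that switches Pnpla2 on, and perilipins hold it until a signal releases it. Its own level was close in both genotypes. It averaged 35.4 ± 1.02 CPM in KO-8 and 36.7 ± 2.09 CPM in WT-8, with a log2 fold change of -0.05 (95% interval -0.17 to 0.07), and 28.9 ± 3.98 CPM in KO-16 and 28.0 ± 2.73 CPM in WT-16, with a log2 fold change of 0.05 (95% interval -0.21 to 0.32). The log2 ratio of Abhd5 to Pnpla2 reads averaged -0.68 ± 0.29 in KO-16 and -1.17 ± 0.13 in WT-16. Here too no KO-16 library overlapped with WT-16, and the difference of 0.49 had an exact permutation p of 0.00794 (adjusted p = 0.0381). The margin was again narrow, with KO-16 replicate 3 at -1.029 and WT-16 replicate 4 at -1.048. At 8 weeks the difference of this ratio was -0.06 (exact permutation p = 0.746). Both ratios share Pnpla2 as denominator, so they are not independent of each other. Pnpla2 alone had 4 of 5 KO-16 libraries below all of WT-16. The share of other genes or gene pairs whose ratios separate groups in this way was not counted.

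Lipe, hormone-sensitive lipase, acts on the diacylglycerol that Pnpla2 leaves. It had 33.4, 42.0, 31.9 and 39.2 CPM in KO-8, against 25.2, 29.9, 28.0, 29.5 and 49.7 CPM in WT-8. All KO-8 libraries were above 4 of the WT-8 libraries and below WT-8 replicate 5. The fold change was 0.17 on the log2 scale (adjusted p = 0.591 from edgeR), and without WT-8 replicate 5 it was 0.38 (adjusted p = 0.0196). At 16 weeks Lipe had 17.2, 11.1, 12.9, 8.91 and 10.8 CPM in KO-16, against 14.7, 16.8, 20.7, 19.96 and 11.3 CPM in WT-16. The ranges overlapped, with a log2 fold change of -0.46 (95% interval -0.88 to -0.04, adjusted p = 0.179 from edgeR) that was -0.62 (adjusted p = 0.0425) without KO-16 replicate 1, the 1 of 27 alternatives that passed. The log2 ratio of Lipe to Pnpla2 averaged -1.94 ± 0.36 in KO-16 and -1.94 ± 0.45 in WT-16, and that of Plin5 to Pnpla2 -1.77 ± 0.60 in KO-16 and -1.57 ± 0.27 in WT-16. Neither ratio differed at 16 weeks beyond the spread between libraries (exact permutation p = 0.992 for Lipe and 0.540 for Plin5).

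**Figure D3:**
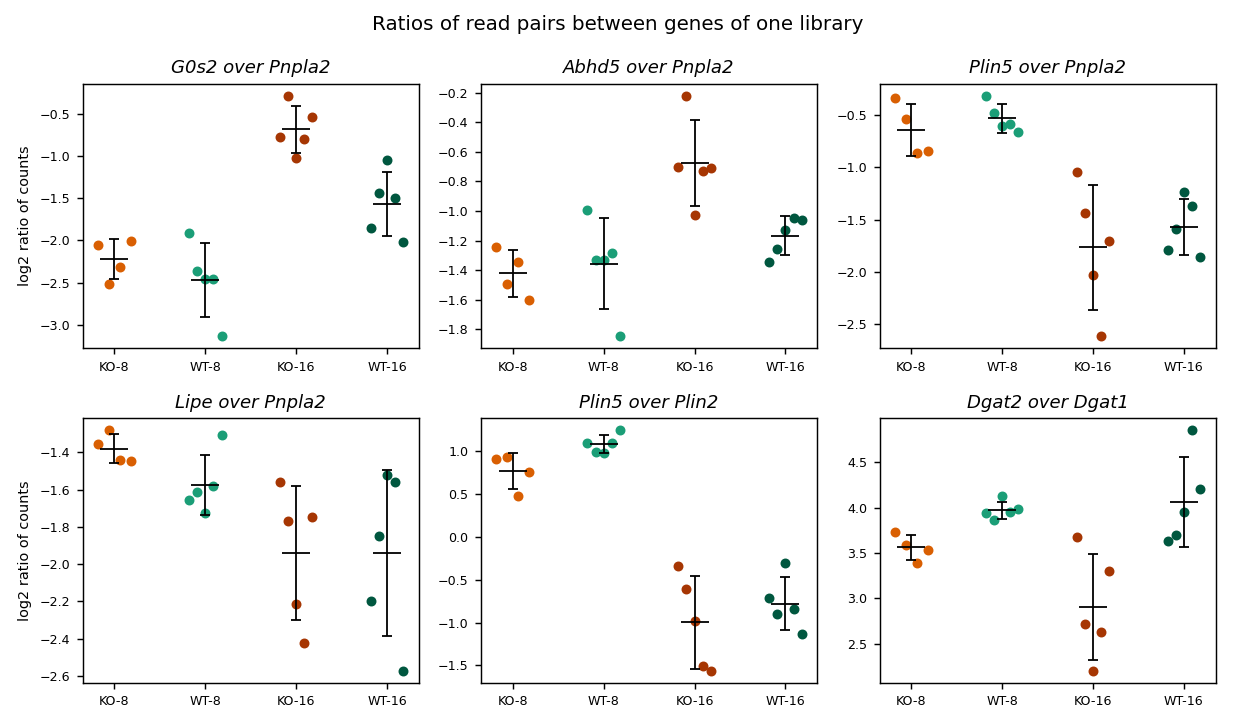
Log2 ratio of the read counts of 2 genes in the same library (y axis, a scale per panel) in KO-8, WT-8, KO-16 and WT-16 (x axis), with library points, group means as long bars and SD as whiskers. G0s2 over Pnpla2 and Abhd5 over Pnpla2 separate KO-16 from WT-16, and Plin5 over Plin2 and Dgat2 over Dgat1 separate KO-8 from WT-8.

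The 2 enzymes that finish triglyceride synthesis had means on opposite sides of WT at both times, and the call at 8 weeks was that of Dgat2. Dgat2, which works at the droplet surface and the endoplasmic reticulum on newly made diacylglycerol, fell in KO-8. It lies on GRCm38 chromosome 7 (99153658 to 99182719, minus strand, ENSMUSG00000030747). It had 114, 110.2, 103 and 98.6 CPM in KO-8, against 133, 132, 128, 124 and 112 CPM in WT-8. 3 KO-8 libraries were below every WT-8 library, and KO-8 replicate 1 was above WT-8 replicate 5 alone. The log2 fold change was -0.24 (95% interval -0.38 to -0.10, adjusted p = 0.0315 from edgeR), a level of 0.846 times that of WT-8. It passed in 13 of 20 alternatives. The call was lost when any of 6 single libraries was left out (KO-8 replicate 3 or 4, or WT-8 replicate 1, 2, 3 or 4, adjusted p 0.0598 to 0.0808) and when 1 spread served all 19 libraries (adjusted p = 0.742).

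At 16 weeks Dgat2 had 57.7, 46.7, 32.7, 34.3 and 35.2 CPM in KO-16, against 54.6, 43.2, 68.7, 55.2 and 48.7 CPM in WT-16. 3 KO-16 libraries were below all of WT-16. The log2 fold change was -0.39 (95% interval -0.76 to -0.02, adjusted p = 0.193 from edgeR), and -0.54 (adjusted p = 0.0370) without KO-16 replicate 1. That was the 1 of 27 alternatives that passed, over which it ran from -0.54 to -0.28 (adjusted p up to 0.433).

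Dgat1, the endoplasmic reticulum enzyme that re-esterifies incoming fatty acids, had few reads (21 to 255 in KO-16 and 11 to 96 in WT-16). It lies on GRCm38 chromosome 15 (76502015 to 76511953, minus strand, ENSMUSG00000022555). At 16 weeks it had 4.49, 7.11, 7.09, 5.49 and 3.49 CPM in KO-16, against 4.29, 3.25, 4.42, 1.83 and 2.53 CPM in WT-16. 4 of the 5 KO-16 libraries were above all of WT-16. Dgat1 thus had a log2 fold change of 0.75 (95% interval 0.17 to 1.34, adjusted p = 0.125 from edgeR), and 0.86 (adjusted p = 0.0483) without KO-16 replicate 5. With the first of the 2 files of each 16-week sample alone it was 1.28 (adjusted p = 0.0376), and with the second alone 0.46 (adjusted p = 0.421). It was 0.60 (adjusted p = 0.325) with each library's 18S share in the fit. Over 27 alternatives the adjusted p reached 0.529, and 3 passed. At 8 weeks Dgat1 averaged 8.998 ± 0.60 CPM in KO-8 and 8.02 ± 0.85 CPM in WT-8, a log2 fold change of 0.17 (adjusted p = 0.276 from edgeR).

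The log2 ratio of Dgat2 to Dgat1 reads was lower in KO at both times. It averaged 3.56 ± 0.14 in KO-8 (n = 4) and 3.97 ± 0.10 in WT-8 (n = 5), with no overlap (difference -0.41, exact two-sided permutation p = 0.0159, the smallest that 4 against 5 libraries can give, adjusted p = 0.0381). It averaged 2.90 ± 0.58 in KO-16 and 4.07 ± 0.50 in WT-16, with 1 KO-16 library inside the WT-16 range (difference -1.16, exact permutation p = 0.0159, adjusted p = 0.0381). With 5 in place of 0.5 added to each count the 16-week difference was -0.95 (adjusted p = 0.0571). Leaving out any single 16-week library other than KO-16 replicate 1 or WT-16 replicate 1 gave -1.26 to -0.97 (exact permutation, adjusted p = 0.0762). With 8 libraries in place of 9 no 8-week ratio passed (adjusted p 0.0571 to 0.0857 for Dgat2 to Dgat1). Groups without overlap stay so when a library is left out, but the smallest p that 8 libraries can give is larger. The loss at 8 weeks therefore does not show that the ratio depends on single libraries. The log2 ratio of Plin5 to Plin2 averaged 0.77 ± 0.21 in KO-8 and 1.08 ± 0.11 in WT-8, with no overlap (difference -0.31, exact permutation p = 0.0159, adjusted p = 0.0381). At 16 weeks it averaged -1.0 ± 0.54 in KO-16 and -0.78 ± 0.31 in WT-16 (exact permutation p = 0.444).

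Levels per length of exon placed the genes on 1 scale. In WT-8 the highest mean was that of Dgat2 at 40.8 CPM per kb of exon, followed by Plin4 (34.9), Pnpla2 (31.4) and Plin5 (31.3), neighbours whose ranges overlapped. Plin3 (20.1) and G0s2 (19.7) came next, then Plin2 (8.78), Abhd5 (6.16), Lipe (5.52) and Dgat1 (2.62). KO-8 began with the same 4 genes, at 34.5 CPM per kb for Dgat2, 31.5 for Pnpla2, 31.0 for Plin4 and 29.4 for Plin5, all overlapping with the next. In KO-16 G0s2 led at 33.0 CPM per kb, above the whole range of Plin4 (20.5), while in WT-16 Plin4 (25.9) and G0s2 (24.6) overlapped. Dgat1 was last in all 4 groups, at 2.94 CPM per kb in KO-8, 2.62 in WT-8, 1.81 in KO-16 and 1.07 in WT-16.

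**Figure D4:**
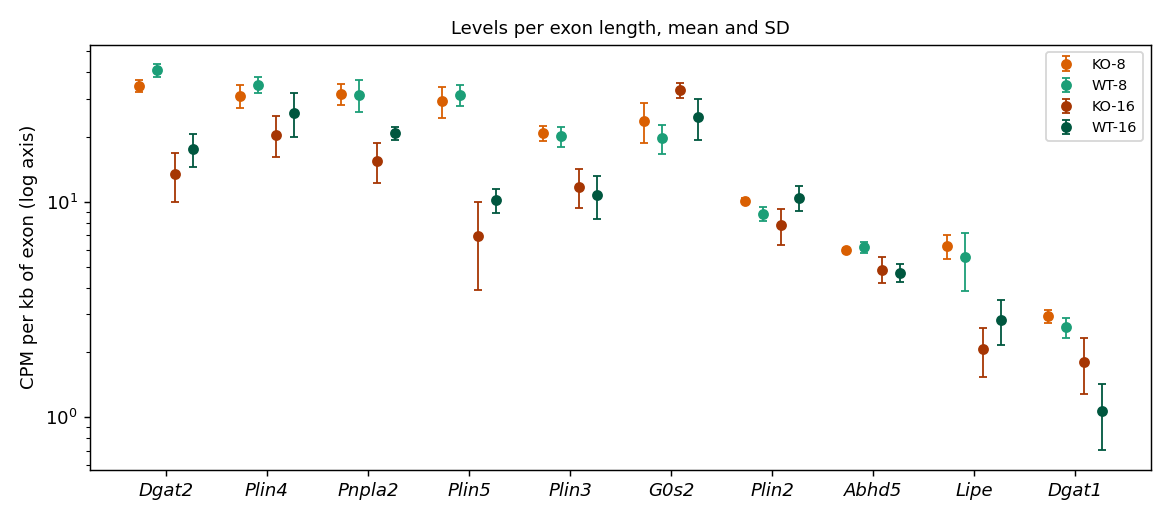
Mean level of each gene in CPM per kb of exon (log y axis) in KO-8, WT-8, KO-16 and WT-16, with SD as whiskers and genes in the order of their WT-8 means. Plin5 sits between 29.4 and 31.3 at 8 weeks and at 6.92 in KO-16 and 10.2 in WT-16, while G0s2 is highest in KO-16.

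Most members were lower in the 16-week libraries of either genotype. KO-16 lay below KO-8 without overlap for 8 of the 10 genes, beside 14.7% of all genes (25.6% in either direction). WT-16 lay below WT-8 without overlap for 7 of the 10, beside 21.6% of all genes (39.1% in either direction). Plin5 differed most, with a KO-16 mean 0.235 times that of KO-8 and a WT-16 mean 0.325 times that of WT-8. G0s2 went the other way, at 1.39 times the KO-8 mean in KO-16 and 1.25 times the WT-8 mean in WT-16, with overlap in both genotypes. Plin2 in WT-16 was 1.19 times WT-8. These are descriptions without a test, since time cannot be told apart from the tags of the files.

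No upstream gene of glycerolipid synthesis passed edgeR's test at either time. Of 17 genes that make glycerol phosphate, phosphatidate or diacylglycerol, 14 were tested. At 8 and at 16 weeks 0 passed, beside 8.19% and 2.55% of all genes (unadjusted p under 0.05 for 1 and 5 genes, beside 23.0% and 23.5% of all genes). DESeq2 and limma-voom also called 0 of the 14 genes. Their median log2 fold change was 0.01 at 8 weeks and 0.16 at 16 weeks. The 4 with the smallest adjusted p at 16 weeks were Gpat3, Agpat1, Lpin2 and Gpd1. Gpat3, which starts the pathway, averaged 9.02 ± 5.5 CPM in KO-16 and 17.7 ± 4.83 CPM in WT-16 (SD, n = 5 each; adjusted p = 0.112 from edgeR). Gpd1, the maker of glycerol phosphate, averaged 21.4 ± 8.76 CPM in KO-16 and 12.7 ± 2.57 CPM in WT-16 (adjusted p = 0.116). Agpat1, the next acyltransferase, was 1.47 times and Lpin2, a phosphatidate phosphatase, 1.41 times WT-16 (adjusted p = 0.132 and 0.118 from edgeR). Gpat3 passed at 16 weeks with quality weights in voom (-1.36, adjusted p = 0.0313, beside 6.46% of all genes called) and without a filter on low counts (-0.998, adjusted p = 0.0478, beside 2.88%). The fit to all 19 libraries called 3 genes of the list higher (Gpd1, Agpat1 and Lpin2) and 2 lower (Gpat3 and Agpat3, the last named after its value was seen), beside 20.5% of all genes. Without KO-16 replicate 1 Gpat3 and Gpd1 passed, and without KO-16 replicate 5 these and Agpat1 and Lpin2, each beside 1864 of the 15503 genes. Without WT-8 replicate 5 Gpam passed at 8 weeks, beside 7.35% of all genes.

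Of 8 other lipases 7 were tested. By edgeR's test Lipa rose and Ces1d fell at 8 weeks, 2 of 7 beside 8.19% of all genes. At 16 weeks 0 passed, beside 2.55% of all genes, and 3 had an unadjusted p under 0.05, beside 23.5%. The median log2 fold changes were 0.14 at 8 and 0.04 at 16 weeks. At 16 weeks limma-voom called 0 of the 7, and DESeq2 called Lipa and Pnpla8 (2 of 6 tested, beside 8.05% of all genes). Voom with quality weights called Lipa, Pnpla8 and Ces1d there (beside 6.46% of all genes). At 8 weeks DESeq2 called Pnpla8 as well (beside 8.69% of all genes). Lipa, the acid lipase of lysosomes, averaged 29.1 ± 2.41 CPM in KO-8 (SD, n = 4) and 23.2 ± 1.74 CPM in WT-8 (n = 5), 1.25-fold higher (adjusted p = 0.0123 from edgeR). Its 16-week means were 34.8 ± 3.68 CPM in KO-16 and 26.2 ± 1.37 CPM in WT-16, a 1.33-fold difference (adjusted p = 0.0569 from edgeR, 0.0191 from DESeq2 and 0.0405 from voom with quality weights). Ces1d, a carboxylesterase with triglyceride hydrolase activity, averaged 57.6 ± 9.03 CPM in KO-8 and 75.5 ± 6.61 CPM in WT-8, a level of 0.763 times WT-8 (adjusted p = 0.0211 from edgeR, and 0.0538 to 0.0597 when KO-8 replicate 2 or WT-8 replicate 1 or 4 was left out). In KO-16 it ran from 4.88 to 51.3 CPM, against 36.3 to 64.2 CPM in WT-16 (adjusted p = 0.198 from edgeR and 0.0265 from voom with quality weights). Without KO-16 replicate 1 the log2 fold change of Ces1d was -2.09 (adjusted p = 0.0101). Pnpla8, a phospholipase of mitochondria and peroxisomes, was 0.696 times WT-16 in KO-16 (adjusted p = 0.0807 from edgeR, 0.0336 from DESeq2 and 0.0399 from voom with quality weights), and Ddhd2, a triglyceride hydrolase known from brain, 1.164 times (adjusted p = 0.354). Lipa and Pnpla8 both passed at 16 weeks without KO-16 replicate 1 or replicate 5, each beside 1864 of the 15503 genes. Both also passed there in the fit to all 19 libraries, beside 20.5% of all genes. Neither Lipa nor Ces1d passed at 8 weeks in that fit (adjusted p = 0.189 and 0.935), beside 0.2% of all genes.

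Of 15 other droplet proteins 12 were tested. By edgeR's test 0 passed at 8 weeks, beside 8.19% of all genes (3 at an unadjusted p under 0.05, beside 23.0%). Hsd17b11 fell at 16 weeks, 1 of 12 beside 2.55% of all genes. The median log2 fold changes were 0.05 at 8 and -0.01 at 16 weeks. DESeq2 and limma-voom also called 0 at 8 weeks, and without a filter on low counts Fitm2 passed there (lower, beside 5.4% of all genes). At 16 weeks limma-voom called Hsd17b11, and DESeq2 and voom with quality weights called Hsd17b11 and Fitm2 (beside 8.05% and 6.46% of all genes). Without a filter Hsd17b11, Plin1 and Cidec passed there, 3 of 15 and all lower, beside 2.88% of all genes. Nearly all WT-16 reads of Plin1 and Cidec were in WT-16 replicate 3 (158 and 106 reads). Hsd17b11, a short-chain dehydrogenase of the droplet surface, averaged 6.005 ± 1.15 CPM in KO-16 and 12.01 ± 3.82 CPM in WT-16 (log2 fold change -1.01, adjusted p = 0.0364 from edgeR). It lost the call when any of 7 single libraries was left out (adjusted p 0.0638 to 0.105). The call was also lost with the 18S share in the fit (log2 fold change -0.86, adjusted p = 0.116), with the second file of each sample alone (-0.72, adjusted p = 0.126), without the libraries with Y-linked reads over 5 CPM (-1.08, adjusted p = 0.164) and among libraries over 20% 18S (-0.92, adjusted p = 0.156). Fitm2, which packages triglyceride as droplets bud, averaged 69.8 ± 13.6 CPM in KO-16 and 98.0 ± 4.52 CPM in WT-16 (adjusted p = 0.0600 from edgeR, 0.0140 from DESeq2 and 0.0273 from voom with quality weights). It passed too without KO-16 replicate 1 or 5 (each beside 1864 of the 15503 genes) and in the fit to all 19 libraries (beside 20.5%). Its muscle relative Fitm1 was 0.732 times WT-16 (adjusted p = 0.240, and 0.0465 without KO-16 replicate 1), and Aup1, a droplet protein of protein quality control, 1.51 times WT-16 in KO-16 (adjusted p = 0.111, 0.0270 without KO-16 replicate 5 and 0.0162 in the fit to all 19 libraries).

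Fat cells express several of these genes, and their markers were by far the highest in 1 library. The summed level of 10 adipocyte markers was 7.70 to 14.7 CPM in KO-8, 8.50 to 12.9 CPM in WT-8, 4.13 to 24.2 CPM in KO-16 and 5.42 to 9.42 CPM in 4 WT-16 libraries, against 127 CPM in WT-16 replicate 3. That library had 192 reads of Adipoq, 158 of Plin1, 106 of Cidec and 207 of Ucp1, of which the other WT-16 libraries had at most 3 in any one gene. KO-16 replicate 5, at 24.2 CPM, was raised too, with 9 reads of Adipoq, 36 of Cfd and 57 of Car3. Thrsp made up most of the 8-week sums (mean 10.7 CPM in KO-8 and 9.35 CPM in WT-8). It ran only from 3.66 to 8.59 CPM over WT-16. No marker was at 0 in all libraries, and 8 of the 10 were too low to be tested. WT-16 replicate 3 was also the highest WT-16 library for G0s2, Lipe, Plin5, Dgat1 and Dgat2. It had the lowest 18S share of WT-16 as well (6.88% of counts, against 23.2% to 39.1% in the others). Its total was the largest of WT-16 (19.7 M read pairs). The part of fat cells, 18S share or depth in its high values was not tested. Without WT-16 replicate 3 the 16-week log2 fold changes were -0.47 for Plin5, -0.36 for Lipe, -0.28 for Dgat2, 0.94 for Dgat1, -0.45 for Pnpla2 and -0.48 for Plin2, and 0 members were called. The G0s2 to Pnpla2 difference was 1.02 without it (exact permutation, adjusted p = 0.0476).

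**Figure D5:**
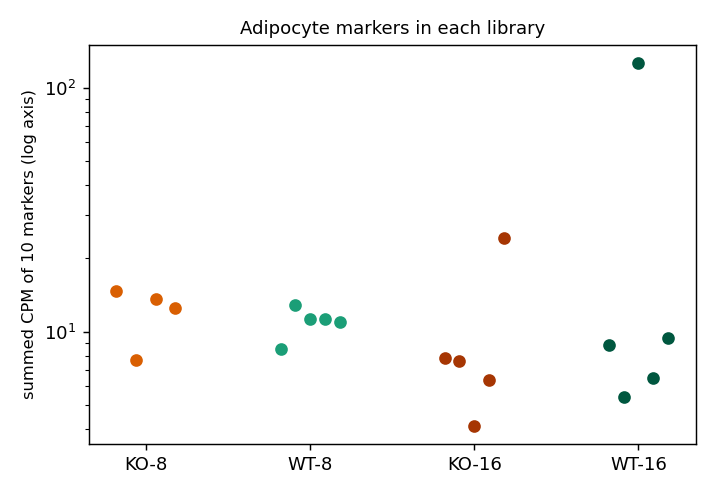
Summed CPM of 10 adipocyte markers (log y axis) in every library of KO-8, WT-8, KO-16 and WT-16 (x axis), a point per library. WT-16 replicate 3 stands at 127 CPM and KO-16 replicate 5 at 24.2 CPM, above the remaining libraries at 4.13 to 14.7 CPM.

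Markers of the muscle cells and of other cells of the ventricle are given beside these results. All 7 cardiomyocyte markers were abundant, at a summed 97050 to 103600 CPM in KO-8, 101200 to 103600 CPM in WT-8, 81780 to 118200 CPM in KO-16 and 109400 to 126400 CPM in WT-16. Ttn made up most of these sums (mean 63680 CPM in KO-16 and 73340 CPM in WT-16). The median log2 fold change of the 7 was -0.06 at 8 weeks and -0.23 at 16 weeks. At 16 weeks edgeR called 0 of them, and the fit to all 19 libraries called 3 lower, beside 20.5% of all genes. The sum of 5 fibroblast markers was 445 to 1087 CPM in KO-16 and 341 to 439 CPM in WT-16, that of 5 endothelial markers 451 to 668 CPM in KO-16 and 416 to 463 CPM in WT-16, and that of 5 macrophage markers 82.3 to 124 CPM in KO-16 and 62.0 to 95.1 CPM in WT-16. At 8 weeks these 3 sums were 504 to 792, 532 to 602 and 112 to 118 CPM in KO-8, and 439 to 487, 473 to 519 and 97.8 to 124 CPM in WT-8. The sum of 4 erythroid markers ran from 251.9 to 560 CPM in KO-8, 424 to 942 CPM in WT-8, 47.3 to 1113 CPM in KO-16 and 52.3 to 130 CPM in WT-16. Of single markers, by the same edgeR test, Lum, Col1a2, Pecam1 and Cdh5 rose and Ryr2 and Hbb-bt fell in KO-8, and Col1a2 and Tie1 rose in KO-16. Their part in the values of the 10 genes was not tested, and in whole tissue fewer cells of a type and less RNA per cell cannot be told apart.

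The genes most like Pnpla2 across libraries were none of the other members. Over deviations of log2 CPM from the group means in all 19 libraries, Pearson's r with Pnpla2 was 0.84 for Tns2, 0.79 for Ube4b, 0.79 for Ep400, 0.78 for Castor2 and 0.78 for Ficd, the top of 13160 genes. Lipe was the closest member (r = 0.44, rank 666), and G0s2 (r = -0.19) and Dgat2 (r = -0.25) were on the negative side. The libraries share their scaling, so these values are a description.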

How the data were processed

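The deposited values are counts of read pairs per gene in 29 tables, which the authors made with featureCounts 1.6.3 (pairs counted, reverse strand, largest overlap) against Ensembl 96 annotation of GRCm38, per the file headers. Per the submitters' processing notes, SAMtools, STAR, RSEM, FastQC and cutadapt 1.16 were used too, in roles not given in the sources used here. The 2 files of each 16-week sample were summed, giving 19 libraries. Counts of such file pairs gave a chi-square of 1.34 to 3.15 per gene. Pairs of libraries in a group gave 6.305 or more, and none was taken for a copy of another. The tables name genes by Ensembl ID, and symbols came from GENCODE M21 (55450 of 55536 IDs had one).

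Counts were tested with edgeR 4.0.16 (quasi-likelihood) in R 4.3.3, each time alone, with TMM factors (0.455 to 1.475) and the filterByExpr genes of all 19 libraries (15503), Benjamini-Hochberg adjustment and a threshold of 0.05. The difference between times used all 19 libraries. Ratios within a library added 0.5 to counts and were tested by exact two-sided permutation in scipy 1.17.1. Likeness used log2 CPM with 0.5 added and genes with a mean of at least 1 CPM. Alternatives were upper-quartile or RLE factors, no filter, 1 CPM in 4 libraries, filter and factors per time, DESeq2 1.42.0, limma 3.58.1 voom with and without quality weights, all 19 libraries, mitochondrial or rRNA genes left out, thinning to 8.63 M (mega) read pairs, the 18S share as a covariate, libraries with over 5 CPM of Y-linked reads left out, the first or second 16-week file alone, and single libraries left out. Code was tested on simulated data. Tables and figures used Python 3.11.15, numpy 2.4.6, pandas 2.3.3 and matplotlib 3.10.9.

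Genes named are the members, Mpc1, up to 4 genes of each pathway list with the smallest adjusted p at 16 weeks, the 5 genes most like Pnpla2, and cell type markers. The members, lists and tests were chosen with earlier results of these data known. Promoter windows are from RefSeq (GRCm38.p6), where 8 of the 10 members matched. Opposite-strand exons overlap Plin4 (17 bases, Hdgfl2), Abhd5 (950 bases, A730085K08Rik) and Lipe (918 bases, 4732471J01Rik), and counting used strand.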

Additional observations from a re-analysis of the deposited data

Results flagged for a closer look

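Lipe in WT-8 replicate 5 stood at 49.7 CPM, against 25.2 to 29.9 CPM in the other 4 WT-8 libraries, a gap large for the range of its group. Such a gap arises by chance in about 5% of groups, and 40 groups were looked at. The same library was also the highest of WT-8 for Pnpla2 (122.7 CPM) and Plin5 (77.6 CPM) and the lowest for Dgat2 (112 CPM) and G0s2 (13.9 CPM). It had the largest total of WT-8 (27.5 M (mega) read pairs) and 11.01 CPM of adipocyte markers. The part of either in these values was not tested.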

How the results depend on the processing

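No paired analysis was possible because replicate numbers were given in accession order and pair no libraries. The 396 genes called at 16 weeks became 939 without a filter, 1199 with DESeq2, 1001 with voom and quality weights, 3180 in the fit to all 19 libraries, 33 with the 18S share as a covariate, 12 without the libraries with over 5 CPM of Y-linked reads, and 37 to 1864 with a library left out (1864 without KO-16 replicate 1 or 5). The split was 267 higher and 129 lower with edgeR, 115 and 276 with limma-voom and 407 and 594 with quality weights. Members called at 16 weeks numbered 3 in the fit to all 19 libraries and 0 to 3 with a library left out. The first file of each sample gave 1 (Dgat1), beside 420 of 15503 genes. Libraries over 20% 18S gave 1 (Plin5, a choice made after seeing the data), beside 279 of 15503 genes. At 8 weeks the 1270 genes called became 31 in the fit to all 19 libraries, 839 after thinning and 876 to 1175 with a library left out. Members called at 8 weeks numbered 2 (Dgat2 with Plin2 or, without a filter, G0s2) with RLE or upper-quartile factors, no filter, 1 CPM in 4 libraries, filter and factors per time, DESeq2, limma-voom or thinning. Beside these, 839 of 15503 genes were called after thinning, 1764 of 32638 without a filter, and 1245 to 1347 of 14206 to 15503 in the other settings. Members numbered 0 in the fit to all 19 libraries, and 0 to 3 with a library left out. The difference between times, with 0 genes called by edgeR and by voom with quality weights (2000 at an unadjusted p under 0.05), had 30 with DESeq2 and 0 to 603 with a library left out, with 0 to 1 members.

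With 5 added to counts, the Dgat2 to Dgat1 difference at 16 weeks was -0.95 and no longer passed. With a library left out it was -1.36 to -0.97 at 16 weeks and -0.47 to -0.35 at 8 weeks, and that of Plin5 to Plin2 at 8 weeks -0.36 to -0.21. Neither 8-week difference passed with a library left out (exact permutation, adjusted p 0.0571 to 0.0857). The groups still did not overlap there, and fewer libraries raise the smallest p that the test can give. This loss therefore does not show that either difference depends on single libraries. The G0s2 to Pnpla2 difference at 16 weeks was 0.78 to 1.02 and that of Abhd5 to Pnpla2 0.38 to 0.58, and both passed each time. Signs turned only in values that had not passed. Among libraries over 20% 18S, Plin3 was at -0.0084 and Abhd5 at -0.13 at 16 weeks. Pnpla2 at 8 weeks was at -0.013 without a filter, -0.012 after thinning and -0.055 to 0.12 with a library left out, Plin5 at -0.16 to 0.010 and Hsd17b11 at -0.036 to 0.30. Ratios to Pnpla2 turned too: Abhd5 at 8 weeks (-0.19 to 0.027), Lipe at 16 weeks (-0.16 to 0.12) and Plin5 at 16 weeks (-0.38 to 0.015). The cause of these changes was not tested. Low depth limits Dgat1 most, with 11 reads in 2 WT-16 libraries.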
